A study of Bos taurus with 6 samples.

Results

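The miRNAs miR-193a, miR-193b and miR-365 were read from the miRNA part of the authors' deposited table, taking every row with one of these names and any arm suffix. This gave 6 of the 765 miRNAs listed: bta-miR-193a-3p, bta-miR-193a-5p, bta-miR-193b, bta-miR-365-3p, bta-miR-365-5p and a row named bta-miR-193a without an arm. The rows were chosen by their names, with the mean read counts of the RSV and DMSO groups in view, so the group differences of these rows, fitted values included, are a description and support no finding.

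The cells were primary bovine myoblasts, the precursor cells that fuse into muscle fibers, cultured from the longissimus dorsi muscle of fetal cattle that the study's methods give as 90 days old. In the RSV group (3 samples), cells received 20 μM resveratrol, a plant polyphenol dissolved in DMSO, for 4 days in differentiation medium. In the DMSO group (3 samples), cells received the solvent DMSO alone as the control. The methods speak of 3 independent experiments per group, and neither the number of fetuses nor the genotype of the cells is given in the sources used here.

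A miRNA is made from a hairpin RNA, and either arm of the hairpin, called 5p or 3p, can be kept as the mature miRNA that lowers the output of target mRNAs. The miR-193 and miR-365 hairpins lie in pairs in mammalian genomes, miR-193b beside one copy of miR-365 and miR-193a beside the other. The mature miR-365-3p is the same from both copies, whereas miR-193a-3p and miR-193b are separate products that share their seed, the bases that pair with targets. The miR-193b and miR-365 pair is known for promoting brown fat cell differentiation and, when forced into myoblasts, for holding back the muscle program.

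The gene table of RefSeq for the assembly ARS-UCD2.0, which is not the build the reads were mapped to, was used for gene names and neighbors only. It lists MIR193B and MIR365-1 on the same chromosome, with 1 other gene, the long noncoding RNA LOC100849865, overlapping the stretch between them. MIR193A and MIR365-2 share another chromosome, with MIR2333 and LOC132343021 overlapping the stretch between them. A further hairpin gene, MIR193A-2, lies on a different chromosome from MIR193A. The deposited rows do not name the hairpin copy and mature sequences were not used, so miR-365 reads were not assigned to a cluster. The row bta-miR-193a was not linked to a hairpin.

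For each miRNA the deposited table lists 1 mean of normalized reads in RSV and 1 in DMSO, and it has no columns of single samples. Normalized reads are read counts divided by a size factor, which scales a library for its depth. When neither mean was above 400 normalized reads, both could be written as whole reads of 3 libraries in a single way for 582 of 583 miRNAs, which returned the reads of each library without its replicate number. The libraries are called a, b and c within each group, in order of size factor, and the letter does not pair an RSV with a DMSO library. RSV libraries a, b and c had size factors of 1.54, 1.29 and 0.935, and DMSO libraries a, b and c of 0.922, 0.823 and 0.729, so every RSV library was scaled as deeper than every DMSO library. The part of this difference in the results was not tested. The recovered reads summed to between 13093 and 28866 per library, which leaves out all abundant miRNAs and is not the full depth.

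Of the 6 rows, 4 had recovered reads. The means of miR-193b and miR-365-3p were too high, with 42 and 83 possible combinations of reads for RSV and 14 and 32 for DMSO, even when libraries were allowed to differ by no more than 4-fold. For these miRNAs the authors' means are given without SD.

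In the myoblasts, miR-365-3p and miR-193b were the abundant members. The authors' mean of miR-365-3p was 2593 normalized reads in RSV and 2895 in DMSO, which placed it at rank 99 of the 765 miRNAs by mean level. For miR-193b the authors' means were 1862 in RSV and 1970 in DMSO, at rank 117. Below them came miR-193a-5p with 326 and 338 (rank 185), miR-365-5p with 223 and 319 (rank 195), miR-193a-3p with 30.2 and 21.9 (rank 327) and the row miR-193a with 21.0 and 12.3 (rank 360). These levels are reads and were not corrected for how well each miRNA is captured. In libraries of whole cultures, fewer cells of a type and less RNA per cell cannot be told apart.

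**Figure D1:**
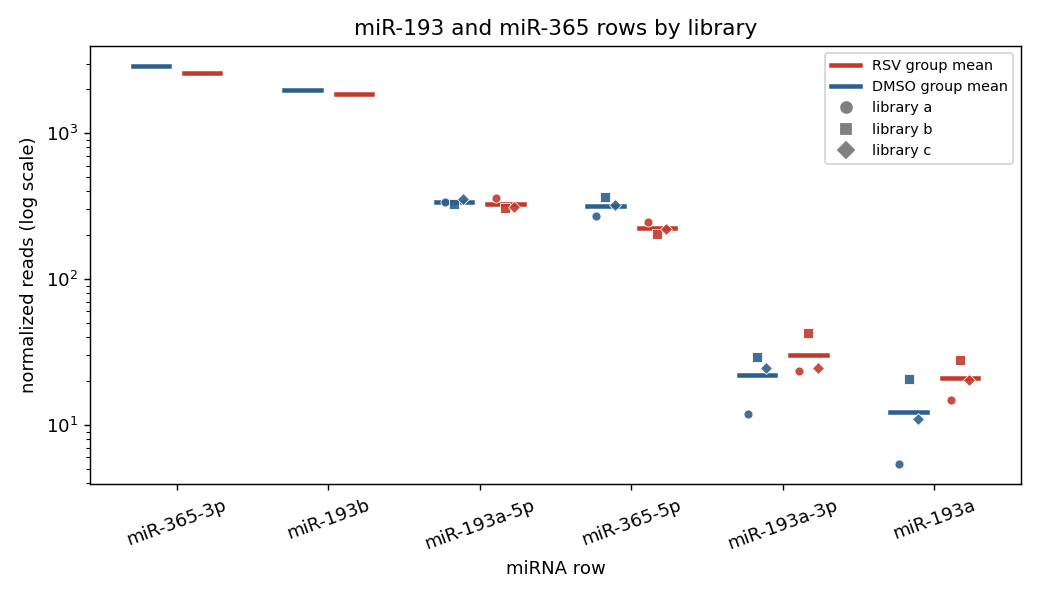
Normalized reads (log axis) of the 6 rows, with a horizontal line for each group mean and a point for each library where reads were recovered. miR-365-5p is the only row with points whose RSV and DMSO libraries do not overlap.

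The passenger arm miR-365-5p was the member with the clearest group difference. Normalized reads of miR-365-5p were 245, 203 and 219 in RSV libraries a, b and c and 270, 363 and 324 in DMSO libraries a, b and c. The highest RSV library lay below the lowest DMSO library, and the groups did not overlap. These values came from 378, 263 and 205 reads in RSV libraries and from 249, 299 and 236 in DMSO libraries. The RSV mean was 223 ± 21.2 (SD, n = 3) and the DMSO mean 319 ± 46.7 (SD, n = 3), so RSV held 69.8% of the DMSO level. By counting error alone, the highest RSV library (95% exact Poisson interval 221 to 271) and the lowest DMSO library (238 to 306) could not be told apart.

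The 208 miRNAs with recovered reads and 10 or more normalized reads on average were fitted with limma voom, which fits log2 read counts by a linear model and gives noisier counts less weight. At an adjusted p-value under 0.05 it called 18 miRNAs (8.65%), 11 of them higher in RSV (5.29%) and 7 lower (3.37%). Rows that list the same reads under different names were each counted, also among the 7 lower ones. The 4 members with recovered reads all entered the fit, and 1 of them, miR-365-5p, was called, on the lower side. Its log2 fold change was −0.51 (standard error 0.13, 95% interval −0.79 to −0.22), at rank 21 of the 208 from the lowest. Libraries of the groups did not overlap for 67 of the 208 miRNAs (32.2%), 23 of them lower in RSV (11.1%), so that the lack of overlap of 1 in 4 members is near the background. The call for miR-365-5p was kept when RSV library a or c was left out, and lost without RSV library b or any 1 of the DMSO libraries, with log2 fold changes from −0.63 to −0.41 over these fits. The number of miRNAs called moved as well, to 29 without RSV library c and to 3, 3 and 4 without DMSO library a, b or c.

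The main arm miR-365-3p is the strand that the miR-365 name usually refers to. From the authors' means its log2 ratio of RSV over DMSO was −0.16, or 89.6% of the DMSO level. Among the 143 miRNAs with both means of at least 1000 normalized reads, the middle of the log2 ratios lay between −0.16 and 0.11, with a median of −0.03. In that set, 67 miRNAs (46.9%) were at least as far from 0 as miR-365-3p, which ranked 37 from the lowest. As a share of the summed group means of all 765 miRNAs listed, miR-365-3p was 0.0391% in RSV and 0.0394% in DMSO.

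For miR-193b the log2 ratio of the authors' means was −0.08, or 94.5% of the DMSO level. Of the same 143 miRNAs, 107 (74.8%) were at least as far from 0. As a share of the summed group means of all 765 miRNAs listed, miR-193b was 0.0281% in RSV and 0.0268% in DMSO. By that measure miR-193b was higher in RSV, so its direction depended on the scaling. The spread between libraries of miR-193b and miR-365-3p is not known, and the 26 tested miRNAs nearest in level, with means from 200 to 400 normalized reads, had a median standard error of 0.11 on the log2 scale. Set side by side, miR-365-3p held 1.39 times the reads of miR-193b in RSV and 1.47 times in DMSO.

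**Figure D2:**
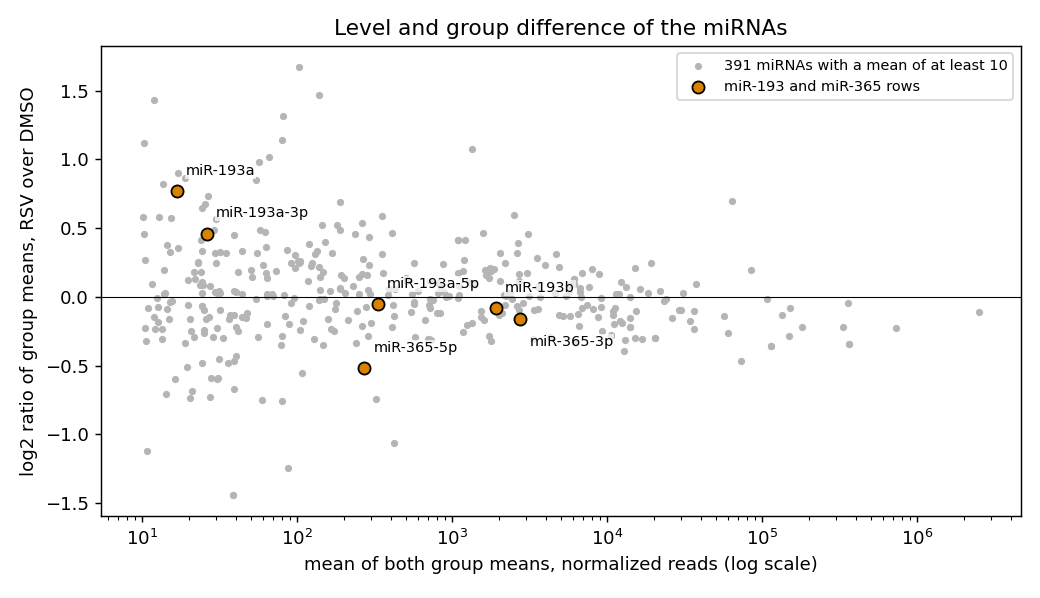
Log2 ratio of the group means, RSV over DMSO, against the mean level (log axis) of 391 miRNAs that average 10 or more normalized reads, the 6 rows in orange. miR-193b, miR-193a-5p and miR-365-3p lie between −0.16 and −0.05, miR-365-5p lies at −0.52, and the low rows miR-193a-3p and miR-193a lie at 0.46 and 0.77.

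The arm miR-193a-5p was steady across the libraries. It had 361, 307 and 310 normalized reads in RSV libraries a, b and c and 337, 325 and 351 in DMSO libraries a, b and c, from 256 to 557 reads. RSV library a was the highest and RSV libraries b and c the lowest, so that the DMSO libraries lay inside the range of the RSV libraries. The coefficient of variation was 9.38% in RSV and 3.81% in DMSO. The log2 fold change was −0.05 (standard error 0.10), with a 95% interval from −0.27 to 0.17. As a share of the summed group means of all 765 miRNAs listed, miR-193a-5p was 0.00491% in RSV and 0.00460% in DMSO, the other direction.

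The miR-193a-3p arm, which shares its seed with miR-193b, was low and spread widely. It reached 23.4, 42.5 and 24.6 normalized reads with RSV and 11.9, 29.1 and 24.7 with DMSO, in the order of libraries a, b and c. RSV library b was the highest of the 6 and DMSO library a the lowest, and the other 4 libraries lay together between 23.4 and 29.1. These values rest on 36, 55 and 23 reads in RSV and on 11, 24 and 18 reads in DMSO. The log2 fold change was 0.54 (standard error 0.37, 95% interval −0.28 to 1.37), and it was 0.10 without DMSO library a and 0.82 without DMSO library b.

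The row miR-193a followed the same libraries at a lower level. It had 14.9, 27.8 and 20.3 normalized reads in RSV and 5.42, 20.6 and 11.0 in DMSO, from 23, 36 and 19 and from 5, 17 and 8 reads. Again RSV library b was the highest and DMSO library a the lowest, and DMSO library b lay above RSV libraries a and c. The 5 reads of DMSO library a allow 1.76 to 12.7 normalized reads (95% exact Poisson interval, counting error only). The log2 fold change was 0.89 (standard error 0.47, 95% interval −0.17 to 1.95), with values from 0.34 without DMSO library a to 1.29 without DMSO library b. Whether this row and miR-193a-3p share reads is not given in the sources used here.

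**Figure D3:**
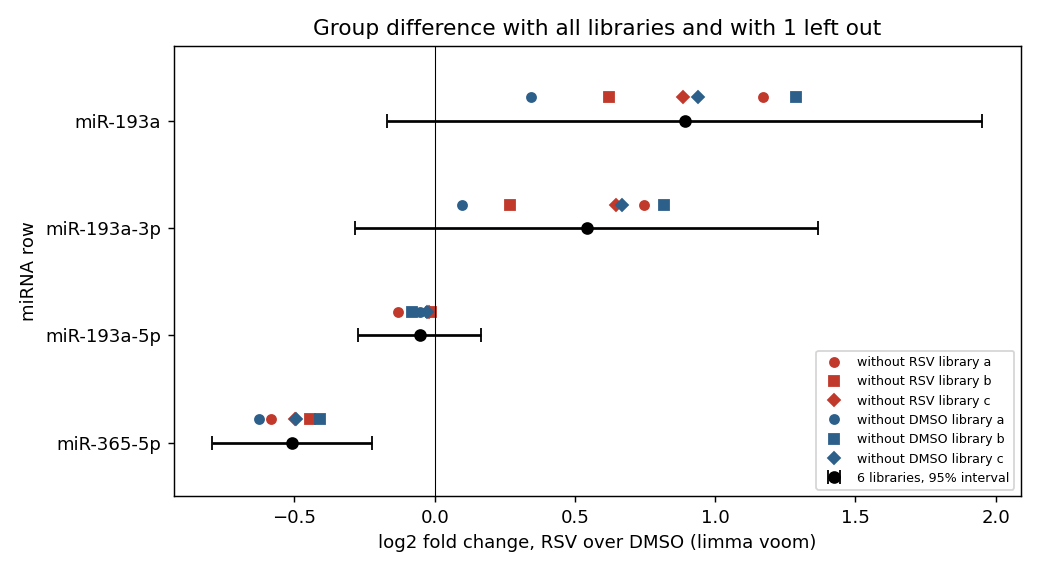
Log2 fold change, RSV over DMSO, of the 4 rows with recovered reads: black points with 95% intervals for all 6 libraries, colored points with 1 library left out. The miR-365-5p points stay between −0.63 and −0.41 and those of miR-193a-3p spread from 0.10 to 0.82.

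The rows named as 3p and 5p arms of the same miRNA were then compared within a group. For miR-193a the 5p arm dominated, with 10.8 times the normalized reads of the 3p arm in RSV and 15.4 times in DMSO by the authors' means. The row miR-193a, with 21.0 normalized reads in RSV and 12.3 in DMSO, names no arm and was left out. Whether its reads belong to an arm in this ratio is not known. For miR-365 the 3p arm dominated, with 11.6 times the 5p arm in RSV and 9.08 times in DMSO. The miR-365-3p row can hold reads of both hairpin copies, so this ratio need not be that of a single hairpin. The 3p arm was the higher one in both groups for 11 of the 29 miRNAs with both arms listed at 10 or more normalized reads in each group, miR-365 among them.

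Within a library the size factor cancels in the ratio of 2 arms. Of the miR-193a reads with an arm, the 3p arm took 6.07%, 12.2% and 7.35% in RSV libraries a, b and c and 3.42%, 8.22% and 6.57% in DMSO libraries a, b and c. DMSO library a had the lowest share (95% Clopper-Pearson interval 1.72% to 6.03%) and RSV library b the highest (9.30% to 15.5%). The other libraries of both groups lay between 6.07% and 8.22% and overlapped. The mean log2 ratio of 3p over 5p was −3.47 ± 0.56 (SD, n = 3) in RSV and −4.00 ± 0.68 (SD, n = 3) in DMSO, with 0.5 read added to each arm. The difference of 0.54 was smaller than the spread within the DMSO group. It fell to 0.16 without DMSO library a and to 0.22 without RSV library b.

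For miR-365 the arm ratio could be taken from the group means alone, and the log2 of 3p over 5p was 3.54 in RSV and 3.18 in DMSO. The difference of 0.36, like the 0.51 of miR-193a from the group means, was toward the 3p arm in RSV. Across the 29 miRNAs with both arms the median difference was −0.06, with quartiles of −0.22 and 0.11, and 12 of them (41.4%) were toward the 3p arm in RSV. miR-193a and miR-365 held ranks 2 and 4 from the top of the 29. A difference of at least the size of miR-193a was seen in 3 of the 29 either way (10.3%) and one of at least the size of miR-365 in 8 (27.6%). These are ratios of group means, without a measure of spread, and that of miR-365 can pool both hairpin copies.

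**Figure D4:**
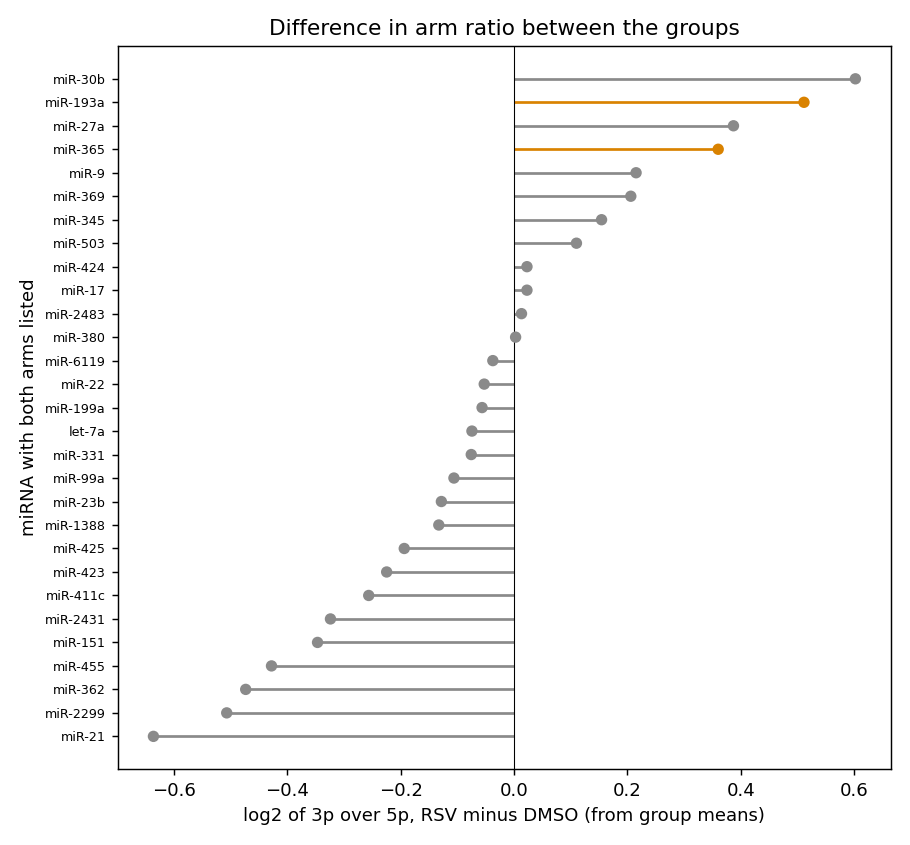
Difference between RSV and DMSO in the log2 ratio of 3p over 5p, from the group means, for 29 miRNAs with both arms listed. miR-193a at 0.51 and miR-365 at 0.36 (orange) hold ranks 2 and 4, and miR-21 at −0.64 lies at the other end.

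The miRNAs whose pattern over the 6 libraries was most like each member were found by the Pearson correlation of log2(normalized reads + 1), among 207 other miRNAs with recovered reads. The 6 points share libraries and the group difference, so the values are a description. For miR-365-5p these were bta-miR-2403 (r = 0.98), bta-miR-503-3p (r = 0.93) and bta-miR-195 (r = 0.92), the last from a family known for restraining the cell cycle. All 3 were highest in DMSO library b. For miR-193a-3p they were bta-miR-2422 (r = 0.98), bta-miR-345-3p (r = 0.97) and bta-miR-6119-3p (r = 0.96), followed at rank 4 by the row miR-193a (r = 0.93). Those 3 had their highest level in RSV library b and their lowest in DMSO library a. For the row miR-193a they were bta-miR-2284w (r = 0.93), novel_672 (r = 0.93) and miR-193a-3p (r = 0.93).

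For miR-193a-5p the most alike were bta-miR-345-5p (r = 0.86), bta-miR-6522 (r = 0.82) and bta-miR-2285u (r = 0.79). The 95% exact Poisson intervals of its highest library, RSV library a (332 to 393), and its lowest, RSV library b (277 to 339), overlapped. The part of counting error in its correlations was not tested. The opposite arms of miR-193a did not follow each other, with r = −0.46 between miR-193a-5p and miR-193a-3p. The correlation of miR-365-5p was 0.44 with miR-193a-5p and −0.22 with miR-193a-3p. miR-345 gave its 3p arm to the pattern of miR-193a-3p and its 5p arm to that of miR-193a-5p.

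To set miR-193b and miR-365 beside other miRNAs tied to brown fat or muscle differentiation, a list of 25 names was used, of which 24 had 32 rows in the table. Reads were recovered for 8 of these rows, and 4 of the 8 were called by limma voom, 2 higher and 2 lower in RSV, against 8.65% of all tested miRNAs. Without any 1 DMSO library 0 of them were called, and without RSV library a or b 2 were. The median log2 fold change of the 8 rows was −0.13, and that of all 208 tested was 0.03.

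bta-miR-499, a muscle miRNA from a myosin gene, had 91.5, 162 and 89.8 normalized reads in RSV and 41.2, 44.9 and 52.1 in DMSO. Its log2 fold change was 1.27 with a standard error of 0.27 (limma voom, Benjamini-Hochberg adjusted p = 0.021). bta-miR-182, reported to support brown fat cells, had a log2 fold change of 0.94 with a standard error of 0.24 (limma voom, adjusted p = 0.038). All 3 RSV libraries lay above the DMSO libraries for both miRNAs.

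The other called member of the list, besides miR-365-5p, was bta-miR-378b. It had 11.0, 10.05 and 134 normalized reads in RSV and 128, 123 and 117 in DMSO, so that RSV library c lay above all DMSO libraries and the groups overlapped. The far more abundant row bta-miR-378 had no recovered reads and a log2 ratio of the authors' means of −0.10. bta-miR-196a, bta-miR-208b, bta-miR-30b-3p and bta-miR-378d were tested and not called, with log2 fold changes from −0.24 to 0.47.

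The other 24 rows, among them miR-193b and miR-365-3p, were too abundant for recovered reads. The muscle miRNAs miR-206 and miR-1 had authors' means of 127629 and 28912 normalized reads in RSV and 139464 and 30883 in DMSO, far above miR-193b, and log2 ratios of −0.13 and −0.10. bta-miR-133a, which restrains brown fat formation, was at 7817 in RSV and 7453 in DMSO, with a log2 ratio of 0.07. bta-miR-155, another such miRNA, was at 6697 and 7089 with a log2 ratio of −0.08. Over all 24 rows the log2 ratios ranged from −0.34 for bta-miR-199a-3p to 0.46 for bta-miR-34a, without a measure of spread.

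A list of 16 genes reported as targets of miR-193 or miR-365 was looked up in the mRNA rows. Gene names could be paired with identifiers only through the study's sheet of DE mRNAs, so a name is given for 4 of the 16 and the choice of named genes follows their change. The log2 ratio of the group means, RSV over DMSO, was −1.19 for IGFBP5, an IGF-binding protein of differentiating myoblasts, and −1.08 for PLAU, the urokinase-type plasminogen activator. It was −0.37 for YWHAZ, a 14-3-3 adaptor protein, and −0.42 for NF1, a brake on RAS signaling. All 4 were lower in RSV, as were 56.6% of the 1777 named mRNAs whose ratio could be read. The list does not split the targets by arm. Of the rows fitted by limma voom, miR-365-5p was called, and miR-193a-3p, miR-193a-5p and the row miR-193a were not. The rows miR-193b and miR-365-3p had no recovered reads to fit. The authors' own P-values for these miRNAs were not used here.

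Of 12 marker genes for muscle, fibroblast and adipose cells, 3 had a name through the same sheet. The log2 ratio of the group means was 0.72 for the embryonic myosin gene MYH3, −0.43 for THY1 and −0.42 for PDGFRA, which mark fibroblasts and related cells. Their part in the miRNA differences was not tested. No name was paired for MYOD1, MYOG, MYF5, DES, ACTA1, COL1A1, ADIPOQ, FABP4 or PLIN1, so the cell type in the labels was checked through the muscle miRNAs alone.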

How the data were processed

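miRNA and mRNA were sequenced in 3 RSV and 3 DMSO samples of primary bovine myoblasts. According to the study's methods and the submitters' processing notes, the authors mapped the miRNA reads to bosTau8 with Bowtie 0.12.9, named miRNAs by miRBase 20 and compared the groups with DESeq 1.18.0. The deposited table holds the group means of read counts divided by size factors, followed by the authors' log2 fold changes and P-values. These last columns were not used, except that the fold change placed the lost decimal point of the mRNA ratios.

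Whole reads per library were recovered from the miRNA means of up to 400 normalized reads. All 40 distinct nonzero RSV values and 18 distinct nonzero DMSO values among the means under 1.5 could be written as whole reads over the 3 size factors of their group. The size factors were first chosen to write as many of these values as possible, so this is not a separate check. Means above 100 were settled under the condition that normalized libraries differ by no more than 4-fold, and each mean of the recovered miR-193 and miR-365 rows had 1 combination also without it. The reads were fitted by limma voom in limma 3.58.1 under R 4.3.3, using size factors as library sizes, a minimum mean of 10 normalized reads and Benjamini-Hochberg adjustment over 208 miRNAs. In simulated reads for the RSV and DMSO comparison over 208 miRNAs, all with a dispersion of 0.01, 94% of those with an absolute log2 fold change of 1 were called, 54% of those with 0.5 and 4.63% of those unchanged. These shares do not hold for miRNAs whose libraries spread more widely. Python 3.11.15, numpy 2.4.6, scipy 1.17.1, pandas 2.3.3, numba 0.67.0 and matplotlib 3.10.9 were used. The limma voom p-values set each group difference against the spread between these samples, estimated in part from all 208 miRNAs. Intervals on reads cover counting error only.

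The named miRNAs are the 6 rows, the 3 miRNAs most like each of the 4 rows with reads, and the called members of the list of differentiation miRNAs. Members, lists and tests were chosen with earlier results of these data known. Other miRNAs of that list and miR-21 were named after their values were seen. Mature sequences were not used here. Alternatives were other scalings, filters, a model without weights, other pseudocounts and each library left out.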

Additional observations from a re-analysis of the deposited data

How the results depend on the processing

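With all libraries kept, 57 of 59 values recomputed under another scaling, minimum mean, model, pseudocount or source of the arm ratio kept their direction and their side of the threshold (for counts, stayed within 1.5 times), and the number of miRNAs called stayed between 16 and 25. The exceptions were bta-miR-182, with adjusted p = 0.052 in limma voom when libraries were scaled to their total of recovered reads, and bta-miR-378b, with adjusted p = 0.12 in limma without weights, each of which took the differentiation list from 4 called rows to 3. Leaving out each library in turn gave between 3 and 29 called miRNAs and between 0 and 4 called members of the differentiation list. For miR-365-5p the log2 fold change lay between −0.63 and −0.41 and passed the threshold in 2 of the 6 fits. It lay between −0.13 and −0.01 for miR-193a-5p, between 0.10 and 0.82 for miR-193a-3p and between 0.34 and 1.29 for the row miR-193a, without a call in these fits. The arm difference of miR-193a lay between 0.16 and 0.81. No value recomputed under these settings changed direction. The scalings used recovered reads only, and the ratios of miR-193b and miR-365-3p were varied only by adding 1 or 5 to each mean. The share of the summed group means of all 765 miRNAs was not among the settings. By that share miR-193b and miR-193a-5p were higher in RSV, and the other rows kept their direction. No paired analysis was possible because the deposited columns hold group means and the recovered libraries carry no replicate number. The low read numbers of miR-193a-3p and the row miR-193a limit what their differences can show.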
